A study of Rattus norvegicus with 142 samples.

Results

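The genes described here are 4 cell cycle genes, Ccnb1, Cdk1, Top2a and Mki67, each read by 1 of the 24249 probe sets of an Affymetrix HT Rat Focus array. They were taken by probe set identifier, as the series record pairs it with each gene: 1370345_AT for Ccnb1, 1367776_AT for Cdk1, 1388650_AT for Top2a and 1374775_AT for Mki67. All 4 were found. The study followed Long-Evans rat pups for a week after seizures brought on by low oxygen at postnatal day 10 (P10). Pups of the HS+NBQX group breathed 5% oxygen for 15 min, which provokes hypoxic seizures (HS), and then received NBQX, an antagonist of the AMPA class of glutamate receptors, by intraperitoneal injection. The HS group had the same hypoxia and injections of the vehicle, DMSO. The noHS group had a sham event in normal air and the same vehicle injections, so that no group was without injections. The course was 4 injections over 48 h, begun within an hour after the hypoxic interval, so pups killed at the early times had received only part of it. Hippocampus and whole cortex were taken at 1, 6, 12, 48 or 168 h, the last of these 1 week after P10.

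The 142 libraries came from 74 pups of 11 litters. The hippocampus gave 70 libraries (23 HS+NBQX, 23 HS and 24 noHS) and the cortex 72 (24 HS+NBQX, 23 HS and 25 noHS), with 4 to 6 per tissue, treatment and time, and 68 pups gave both tissues. Each litter was killed at a single time, 3 litters at 1 h and 2 at each later time, so that age and litter can be told apart only as far as those few litters allow. The third litter at 1 h gave only 2 pups, both HS. The arrays had upper quartiles between 272 and 323 intensity units and medians between 63.8 and 79.9, no 2 libraries held identical values, and 13 libraries of 1 litter killed at 168 h lay on the plate that otherwise held the other tissue. The tissue labels could not be set against marker genes, because no table pairing the probe sets with genes was used here. The samples are whole tissue, in which fewer dividing cells and less of each RNA per cell cannot be told apart.

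A dividing cell copies its DNA and then separates the copies in mitosis, and each of the 4 proteins serves a step of this cycle. Cyclin B1, the product of Ccnb1, binds and activates the kinase Cdk1, and the pair drives entry into mitosis. Top2a encodes a DNA topoisomerase that untangles the copied chromosomes, and Mki67 encodes Ki-67, a protein that coats mitotic chromosomes and is widely used to mark proliferating cells. Their RNA accumulates in cycling cells and is low in resting ones. In the rat brain at this age, cells still divide among glial precursors, in the germinal zones along the ventricles and in the dentate gyrus of the hippocampus, whereas mature neurons do not.

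Genes of late cell cycle phases often carry in their promoters the cell cycle homology region, spelled TTTGAA or, in another form, TTTAAA. A second element, the CCAAT box, often stands beside it. The stretches that hold these letters are shown because the 4 genes moved together with age. All 4 genes were matched by symbol in the RefSeq promoter set for the GRCr8 assembly. Each stretch runs 5′ to 3′ along its gene, and capitals mark both forms of the homology region and the CCAAT box on either strand. On the opposite strand the homology region reads TTCAAA, and the box on that strand reads ATTGG. The Ccnb1 stretch is chr2:33655226-33655325 on the minus strand, from 100 bases to 1 base upstream of the annotated start. The Cdk1 stretch is chr20:19265152-19265251 on the plus strand, from 141 to 42 bases upstream. The Top2a stretch is chr10:84473094-84473193 on the minus strand, from 100 bases to 1 base upstream. The Mki67 stretch is chr1:199952682-199952711 on the minus strand, from 118 to 89 bases upstream. It is kept to 30 bases because this start lies inside the annotated span of the gene, and in it a homology region and a box on the opposite strand overlap at the end.
Ccnb1: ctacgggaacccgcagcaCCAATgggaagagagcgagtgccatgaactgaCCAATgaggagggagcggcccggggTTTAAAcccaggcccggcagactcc
Cdk1: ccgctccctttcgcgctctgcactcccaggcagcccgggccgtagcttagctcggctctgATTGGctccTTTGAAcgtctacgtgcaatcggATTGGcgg
Top2a: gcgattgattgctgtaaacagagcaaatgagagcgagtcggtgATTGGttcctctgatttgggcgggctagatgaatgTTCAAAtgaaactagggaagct
Mki67: aTTTGAAccgccgttttcgTTTGAATTGGg

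Over the whole 250 bases upstream, with both strands searched, Ccnb1 held 1 homology region and 2 boxes, Cdk1 2 regions and 3 boxes, Top2a 1 region and 4 boxes, and Mki67 2 regions and 4 boxes. Among the 33469 promoters of the same length, the form TTTGAA was found in 16.2% and the form TTTAAA in 12.3%, while the box was found in 34%. A homology region of either form stood together with 2 or more boxes in 2.32% of them, and in 4 of these 4 genes. A match of letters is a description and not a measured binding site.

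Intensities of a single probe set can be compared between libraries but not with those of another probe set. Over the 142 libraries Ccnb1 ran between 11.4 and 75.5 intensity units (median 38.85), Cdk1 between 28.9 and 127 (72.5), Top2a between 97.5 and 570 (278) and Mki67 between 41.1 and 173 (97.95). Ccnb1 was the dimmest of the probe sets relative to its own array, with a mean at the 39.93rd percentile of all probe sets.

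The sham-treated pups give the course of the 4 genes in normal development. All 4 were lower at 168 h than at 1 h in both tissues, by between 1.89-fold (Ccnb1 in cortex) and 2.82-fold (Top2a in hippocampus), while at 6, 12 and 48 h none of the differences from 1 h passed the test. At 48 h the cortex already stood below 1 h for all 4 genes, by between −0.24 (Top2a) and −0.49 (Mki67) on the log2 scale. The test was limma on log2 intensity, fitted to the 24249 probe sets together. Its p-values were adjusted by the Benjamini-Hochberg method over all of them, and a gene is said to rise or fall only where the adjusted p was under 0.05. In this comparison 8.69% of all probe sets fell in the hippocampus and 14.8% in the cortex. The median log2 difference of the 4 genes was −1.31 in the hippocampus and −1.27 in the cortex, against 0.02 and −0.08 over all probe sets.

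Cyclin B1 RNA in the noHS hippocampus stood at 22.0, 16.9, 25.4, 16.7 and 16.9 at 168 h, against 46.2, 45.7, 54.2, 69.3 and 49.8 at 1 h. The groups did not overlap, and the log2 difference was −1.44 (SE 0.23, limma adjusted p = 4.78e-05), or 2.72-fold lower. Over the course the means were 53.0 ± 9.71, 47.9 ± 13.6, 45.1 ± 9.63, 55.9 ± 17.9 and 19.6 ± 3.95 at 1, 6, 12, 48 and 168 h (SD, n = 5, 5, 4, 5 and 5). The early means lie within each other's spread, and the highest library at 168 h was below the lowest at any earlier time, 31.4.

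In the noHS cortex the estimated fall of Ccnb1 was smaller, but the difference between the tissues did not pass when tested. The Ccnb1 values in the cortex were 26.8, 26.1, 23.0, 27.2 and 28.2 at 168 h, against 40.8, 65.8, 42.9 and 52.2 at 1 h. The log2 difference was −0.92 (SE 0.18, adjusted p = 0.000228), or 1.89-fold lower. The means were 50.4 ± 11.4, 40.8 ± 6.66, 38.2 ± 6.79, 37.5 ± 5.94 and 26.3 ± 1.97 at 1, 6, 12, 48 and 168 h (SD, n = 4, 6, 5, 5 and 5). All 5 libraries at 168 h were below every earlier one, the closest being 28.8 at 48 h.

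Cdk1, the kinase that cyclin B1 activates, stood at 35.8, 33.0, 33.1, 35.9 and 36.0 in the noHS hippocampus at 168 h, against 95.2, 59.8, 80.0, 88.7 and 76.0 at 1 h. The spread at 168 h was narrow and no library reached the level of an earlier one. The log2 difference was −1.185 (SE 0.17, adjusted p = 1.7e-05), or 2.27-fold lower. Its means were 79.9 ± 13.5, 79.0 ± 14.2, 75.8 ± 15.1, 68.1 ± 18.7 and 34.8 ± 1.56 at 1, 6, 12, 48 and 168 h (SD, n = 5, 5, 4, 5 and 5).

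The same gene in the noHS cortex had values of 40.3, 47.8, 38.3, 35.7 and 36.7 at 168 h, against 101, 82.3, 99.8 and 115 at 1 h. Again the groups were apart, and the log2 difference was −1.32 (SE 0.13, adjusted p = 1.43e-08), or 2.50-fold lower. Its means of 99.5 ± 13.4, 85.6 ± 14.0, 86.7 ± 8.26, 73.1 ± 5.34 and 39.8 ± 4.82 at 1, 6, 12, 48 and 168 h (SD, n = 4, 6, 5, 5 and 5) put 48 h below 1 h, but that step of −0.44 did not pass (adjusted p = 0.067).

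Top2a, the topoisomerase, had the widest separation. In the noHS hippocampus it stood at 139, 127, 139, 114 and 123 at 168 h, against 480, 323, 335, 397 and 295 at 1 h, with a log2 difference of −1.49 (SE 0.12, adjusted p = 1.29e-09), or 2.82-fold lower. Its means were 366 ± 73.8, 340 ± 32.7, 309 ± 49.3, 308 ± 38.8 and 128 ± 10.8 at 1, 6, 12, 48 and 168 h (SD, n = 5, 5, 4, 5 and 5). The early means drifted downward without any step passing the test.

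In the noHS cortex Top2a stood at 130, 97.5, 106, 104 and 139 at 168 h, against 324, 296, 254 and 320 at 1 h. No value at 168 h came near the early ones, and the log2 difference was −1.38 (SE 0.12, adjusted p = 2.93e-09), or 2.60-fold lower. Its means were 298.5 ± 32.1, 244 ± 29.0, 276 ± 30.6, 255 ± 38.5 and 115 ± 18.1 at 1, 6, 12, 48 and 168 h (SD, n = 4, 6, 5, 5 and 5).

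Mki67, the proliferation marker, was at 74.7, 41.2, 67.7, 47.7 and 64.8 in the noHS hippocampus at 168 h, against 140, 92.0, 107, 132 and 149 at 1 h. The late values were more scattered than those of Cdk1 or Top2a, yet all were below the early ones, and the log2 difference was −1.08 (SE 0.16, adjusted p = 2.62e-05), or 2.11-fold lower. Its means were 124 ± 23.8, 130 ± 25.1, 113 ± 4.57, 97.8 ± 13.3 and 59.2 ± 14.1 at 1, 6, 12, 48 and 168 h (SD, n = 5, 5, 4, 5 and 5).

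In the noHS cortex Mki67 was at 59.2, 42.6, 41.9, 60.8 and 60.7 at 168 h, against 116, 133, 94.1 and 154 at 1 h. The log2 difference was −1.23 (SE 0.16, adjusted p = 1.03e-06), or 2.34-fold lower, with no overlap. The means were 124 ± 25.4, 106 ± 14.4, 94.7 ± 17.85, 87.4 ± 9.10 and 53.0 ± 9.87 at 1, 6, 12, 48 and 168 h (SD, n = 4, 6, 5, 5 and 5). Here too the step at 48 h, −0.49, did not pass (adjusted p = 0.0915).

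**Figure D1:**
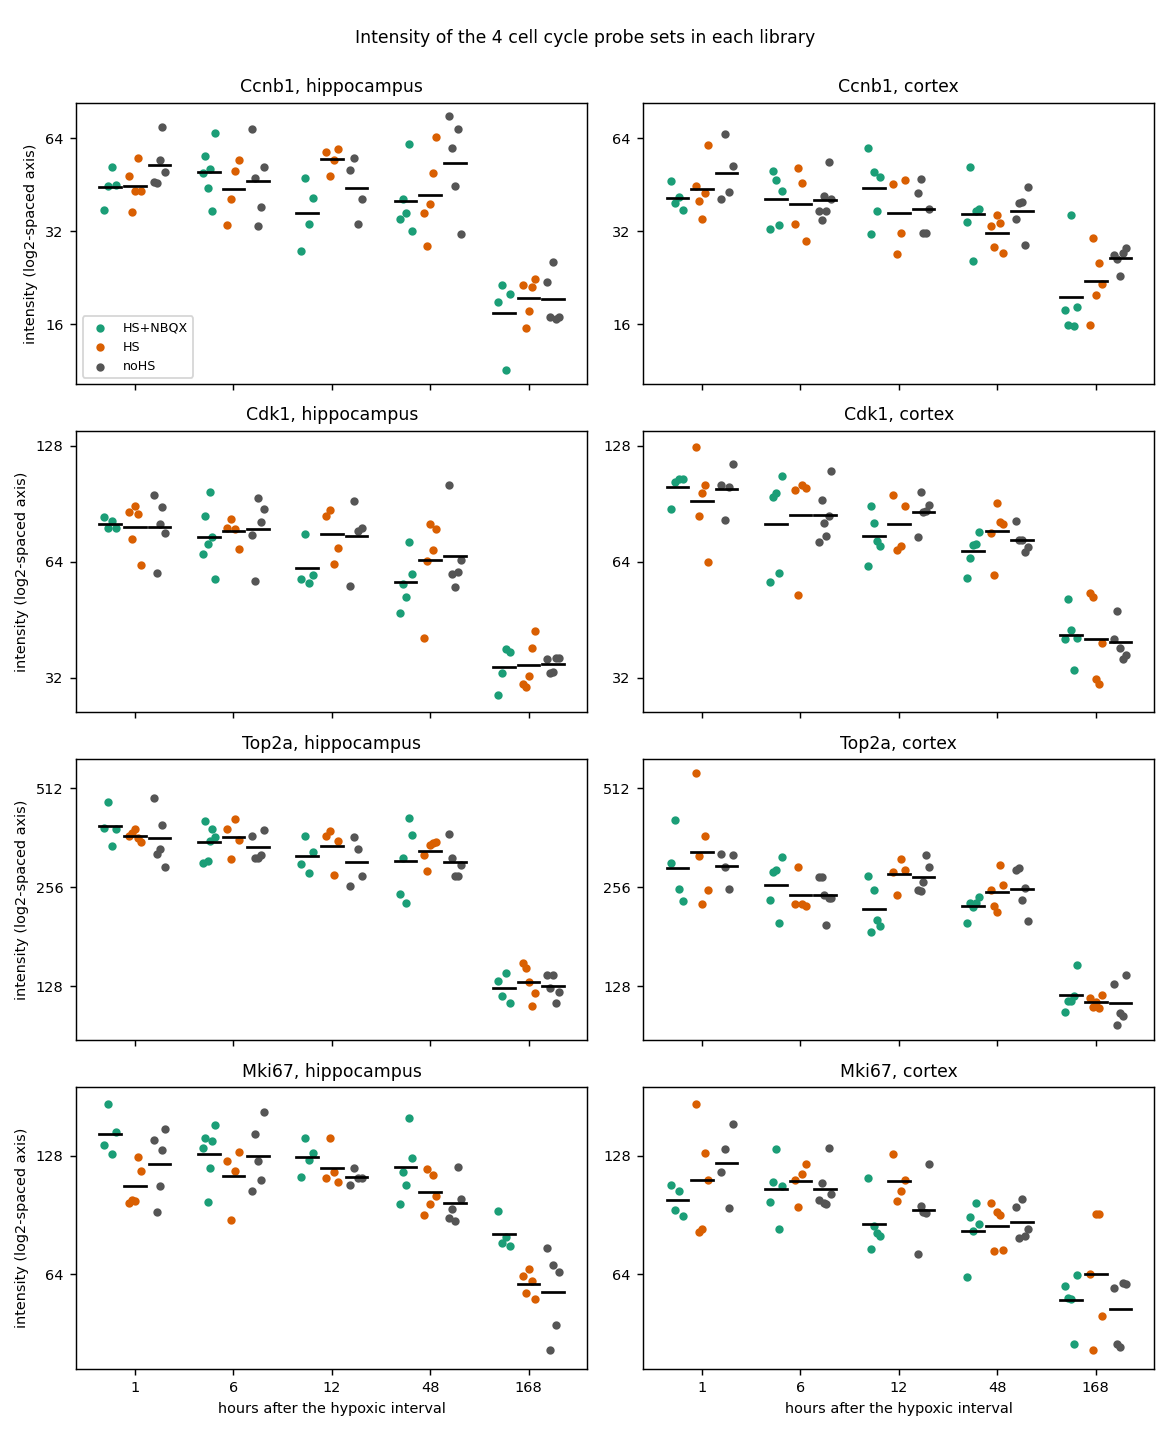
Intensity of Ccnb1, Cdk1, Top2a and Mki67 (rows, log2-spaced vertical axis, intensity units) in every library of hippocampus (left) and cortex (right) against hours after the hypoxic interval, with 1 point per library, colours for HS+NBQX, HS and noHS, and black bars at the mean of the log2 values of a group. With the treatments together, the 168 h points lie below all earlier ones for Top2a in both tissues (112 to 151 against 230 to 480 in the hippocampus) and for Ccnb1 in the hippocampus, while those of Ccnb1 in the cortex and of Cdk1 and Mki67 in both tissues overlap earlier points.

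Counts at the intermediate times were 0 of 4 in both tissues. In the hippocampus 0% of all probe sets passed at 6 h, 0% at 12 h and 0.0619% at 48 h, and 0 of the 4 genes had an unadjusted p under 0.05 at any of these times. In the cortex 0%, 0.528% and 2.86% of all probe sets passed, and 1, 2 and 3 of the 4 genes had an unadjusted p under 0.05 at 6, 12 and 48 h, all below 1 h.

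From 48 h to 168 h all 4 genes fell in both tissues, where 5.64% (hippocampus) and 8.24% (cortex) of all probe sets fell. In the hippocampus the log2 differences, 168 h minus 48 h, were −1.47 for Ccnb1 (limma adjusted p = 9.12e-05), −0.93 for Cdk1 (0.000723), −1.26 for Top2a (1.21e-07) and −0.75 for Mki67 (0.00345). In the cortex they were −0.50, −0.88, −1.14 and −0.74 in the same order, and that of Ccnb1 was close to the threshold (adjusted p = 0.0388) and passed it no longer under 6 of the alternative settings.

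The fall was not confined to sham pups. Of the 24 differences between 168 h and 1 h (4 genes, 2 tissues and 3 treatments), 24 passed the test, each downward, between −0.79 and −1.63 on the log2 scale. Top2a in the HS+NBQX hippocampus fell the most, with values of 114 to 141 at 168 h (n = 4), against 342 to 465 at 1 h (n = 4), 3.10-fold lower. Mki67 in the HS cortex fell the least, 1.73-fold (adjusted p = 0.00372).

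In the hippocampus of HS+NBQX pups the log2 differences were −1.35 for Ccnb1, −1.24 for Cdk1, −1.63 for Top2a and −0.84 for Mki67. In HS pups they were −1.21, −1.19, −1.48 and −0.82 in the same order. Of all probe sets, 13.3% fell in HS+NBQX and 12.8% in HS pups of that tissue. In the cortex the differences were −1.06, −1.28, −1.28 and −0.84 in HS+NBQX pups and −0.99, −1.20, −1.51 and −0.79 in HS pups, where 14% and 14.9% of all probe sets fell.

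**Figure D2:**
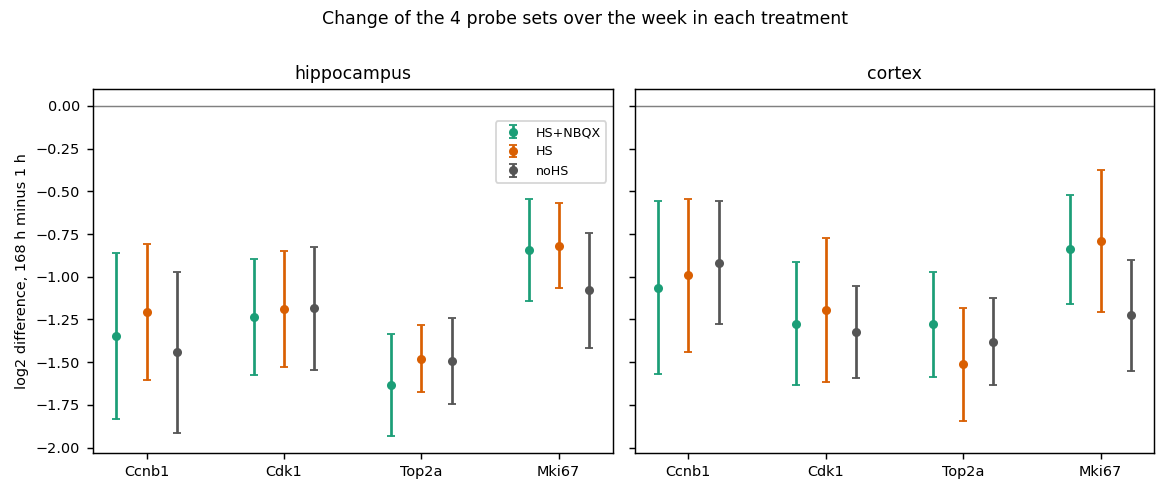
Log2 difference of each gene between 168 h and 1 h (vertical axis, 168 h minus 1 h) in hippocampus (left) and cortex (right), with points at the limma estimate and bars at its 95% confidence interval, coloured by treatment. All 24 intervals lie below 0, the estimates spanning −0.79 to −1.63.

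Whether the treatments changed the size of the fall was tested as a difference of differences, and it passed for 0 of 4 genes in either tissue with HS against noHS. The estimates for HS minus noHS ran between −0.005 and 0.26 in the hippocampus and between −0.13 and 0.44 in the cortex, and 0 of 4 genes had an unadjusted p under 0.05. The 95% intervals reached from −0.49 to 0.84 and from −0.62 to 0.97, so that a moderate difference in the fall remains within the error. Only 0% (hippocampus) and 0.115% (cortex) of all probe sets passed this test.

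Read library by library, each library at 168 h lay below each at 1 h for 4 of 4 genes in every tissue and treatment except the cortex of HS pups, where 3 of 4 did. The exception was Mki67, with 64.2, 41.1, 91.1, 90.8 and 50.3 at 168 h, against 173, 82.1, 83.2, 130 and 111 at 1 h. Such a separation was found for 13.6%, 7.89% and 7.04% of all probe sets in the HS+NBQX, HS and noHS hippocampus, and for 11.4%, 8.33% and 10.6% in the cortex. In noHS pups each library at 168 h lay below every earlier library as well, for 4 of 4 genes in both tissues, as it did for 1.79% of all probe sets in the hippocampus and 2.6% in the cortex. With the treatments pooled, Top2a at 168 h lay below every earlier library in both tissues, between 112 and 151 against 230 to 480 in the hippocampus and between 97.5 and 149 against 187 to 570 in the cortex. Of all probe sets, 0.466% and 0.614% did so.

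Litter and age coincide here, so litters were also set side by side. In noHS pups the mean log2 intensity of both litters killed at 168 h was below that of each of the 8 litters killed earlier, for 4 of 4 genes in both tissues. This follows from the separation of their single libraries given above. The share of all probe sets whose litter means separated in this way was not counted. For Top2a in the hippocampus the 2 late litters stood at 6.888 and 7.076 on the log2 scale, against 8.017 to 8.621 in the 8 earlier ones. Without the litter on the other plate, 24 of the 24 falls still passed, between −0.79 and −1.58. Those fits kept a single litter at 168 h, so in them age and litter cannot be told apart. Over 14 alternative settings, 313 of 314 values passed. The exception was Mki67 in the HS cortex with the methods' t-test, run on the same values (−0.79, Benjamini-Hochberg adjusted p = 0.111). None of these settings took litter as a block, so littermates count as independent in them.

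The comparison of HS with noHS asks whether hypoxia together with its seizures changed the 4 genes. No group had hypoxia without seizures, so their parts cannot be told apart. None of the 4 passed in either tissue, as the mean over the 5 times, although 21.5% of all probe sets did in the hippocampus and 29.1% in the cortex. In the hippocampus the log2 differences, HS minus noHS, were −0.07 for Ccnb1, −0.01 for Cdk1, 0.09 for Top2a (limma adjusted p = 0.228) and −0.02 for Mki67. In the cortex they were −0.15 (adjusted p = 0.211), −0.02, 0.03 and 0.09. The 95% intervals of the 4 reached from −0.26 to 0.19 in the hippocampus and from −0.32 to 0.25 in the cortex, which leaves room for a change of up to those sizes.

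By single genes, Top2a was higher in HS than in noHS hippocampus at 5 of 5 times, by between 0.03 and 0.16, and in 7 of 10 litters. Ccnb1 was lower in HS than in noHS cortex at 5 of 5 times, between −0.04 and −0.25, and in 8 of 10 litters. Neither passed, and 0 of 4 genes had an unadjusted p under 0.05 as the mean over times in either tissue. Every other pair of gene and tissue had both signs among the times. The share of all probe sets with a single sign at 5 of 5 times, or in as many litters, was not counted. The methods' two-way analysis of variance, run on the same values, called 0 of 4 at an adjusted p under 0.05. At the more lenient false-discovery rate that the methods use, 0.25, it called 1 of 4 in each tissue, Top2a in the hippocampus (adjusted p = 0.234) and Ccnb1 in the cortex (adjusted p = 0.184), where 39.7% and 47.3% of all probe sets passed. In the test of a treatment effect that differs with time, 0 of 4 passed in either tissue, as did 0% and 0.0742% of all probe sets.

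Mki67 was the only 1 of the 4 genes that passed between HS+NBQX and HS pups, and it did so in the hippocampus. In HS+NBQX hippocampus it was higher than in HS hippocampus by 0.27 on the log2 scale as the mean over times (SE 0.06, 95% interval 0.15 to 0.39, limma adjusted p = 0.00311), or 1.20-fold. Among all probe sets 4.22% passed this comparison and 2.65% rose. The other 3 genes did not pass, with differences of −0.13 for Ccnb1, −0.10 for Cdk1 and −0.04 for Top2a.

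At 1 h Mki67 in the hippocampus stood at 136, 173, 129 and 147 in HS+NBQX pups, against 97, 98.9, 98.1, 127 and 117 in HS pups, and these groups did not overlap. At 6 h it stood at 134, 142, 97.8, 119, 139 and 153 in HS+NBQX pups, against 124, 87.8, 117 and 131 in HS pups. At 12 h the values were 113, 142, 125 and 130 in HS+NBQX pups and 112, 142, 116 and 110 in HS pups. The groups at 6 and 12 h overlapped widely.

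At 48 h the values were 96.6, 116, 108, 159 and 126 in HS+NBQX pups and 90.5, 118, 96.6, 114 and 101 in HS pups, which overlapped too. At 168 h, when the level had fallen in every group, Mki67 stood at 92.6, 76.7, 79.8 and 75.7 in HS+NBQX pups, against 63.5, 57.3, 65.9, 61.7 and 55.4 in HS pups. All 4 HS+NBQX libraries at 168 h were above all 5 HS libraries. The share of all probe sets that separated in this way, here or at 1 h, was not counted. The difference was positive at 5 of 5 times (0.44, 0.19, 0.09, 0.21 and 0.42 at 1, 6, 12, 48 and 168 h), and at no single time did it pass, the lowest adjusted p being 0.133 at 1 h. Among all probe sets 0.375%, 0.0948%, 0.0289%, 0.033% and 0.0165% passed at those times.

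Pups of all 3 treatments shared 10 of the 11 litters, which allows the difference to be taken within each of those 10. The third litter at 1 h held HS pups only and has no such difference. Mki67 in the hippocampus was higher in HS+NBQX than in HS pups in 10 of 10 litters, by between 0.006 and 0.65 on the log2 scale with a median of 0.28. Of all probe sets, 0.965% were higher in each of the 10 litters. The other 3 genes were higher in 3 (Ccnb1), 5 (Cdk1) and 2 (Top2a) of 10 litters.

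Set against noHS instead, Mki67 in the HS+NBQX hippocampus was higher by 0.25 (SE 0.07, limma adjusted p = 0.00517), where 30.5% of all probe sets passed and 15.8% rose. This comparison has the HS+NBQX libraries in common with the one above. It was higher at 5 of 5 times and in 10 of 10 litters, by between 0.002 and 0.48, as were 7.23% of all probe sets. The noHS libraries of 6 h read 104, 145, 124, 111 and 165, those of 12 h 108, 119, 112 and 112, and those of 48 h 88.7, 93.5, 87.2, 120 and 99.4, beside the 1 h and 168 h values given above. At 168 h alone the lowest HS+NBQX library, 75.7, was above the highest noHS library. The share of all probe sets for which this held was not counted. Ccnb1, Cdk1 and Top2a had differences of −0.19 (adjusted p = 0.162), −0.11 and 0.05 and did not pass, although Ccnb1 passed with quantile normalization (−0.25, adjusted p = 0.0378).

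Technical measures moved with these groups. Each column of a plate held a single treatment, and when plate column entered the fit as a random block, the Mki67 difference of HS+NBQX from HS was 0.26 and no longer passed (adjusted p = 0.0903). It was also lost without the 1 h libraries (0.23, adjusted p = 0.0676). The 3′ over 5′ signal of the control transcripts, a log2 ratio that rises as RNA degrades, averaged 1.66 ± 0.153 in HS+NBQX, 1.73 ± 0.115 in HS and 1.84 ± 0.134 in noHS hippocampus (SD, n = 23, 23 and 24). With this ratio as a covariate the Mki67 difference of HS+NBQX from noHS was 0.12 (adjusted p = 0.344), and without the 168 h libraries it was 0.19 (adjusted p = 0.0548). The difference of HS+NBQX from HS still passed with this covariate. Calls were kept under 18 of 20 alternatives for HS+NBQX against HS and 17 of 19 against noHS. Within groups the correlation of Mki67 with the ratio over the 70 hippocampal libraries was −0.239, as a description. The part of plate column in these differences was not tested beyond that fit.

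In the cortex none of the 4 genes passed between HS+NBQX and HS pups, where 2.68% of all probe sets passed. Mki67 was at −0.17 (95% interval −0.34 to −0.01, unadjusted p = 0.0419, adjusted p = 0.259), below 0 at 5 of 5 times but above 0 in 4 of 10 litters. It was the 1 gene of the 4 with an unadjusted p under 0.05 there, and the methods' two-way analysis of variance called 0 of 4 at an adjusted p under 0.05. Against noHS, the HS+NBQX cortex passed for 0 of 4 genes, with differences between −0.06 and −0.09 and 0 of 4 unadjusted p-values under 0.05, while 39% of all probe sets passed.

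**Figure D3:**
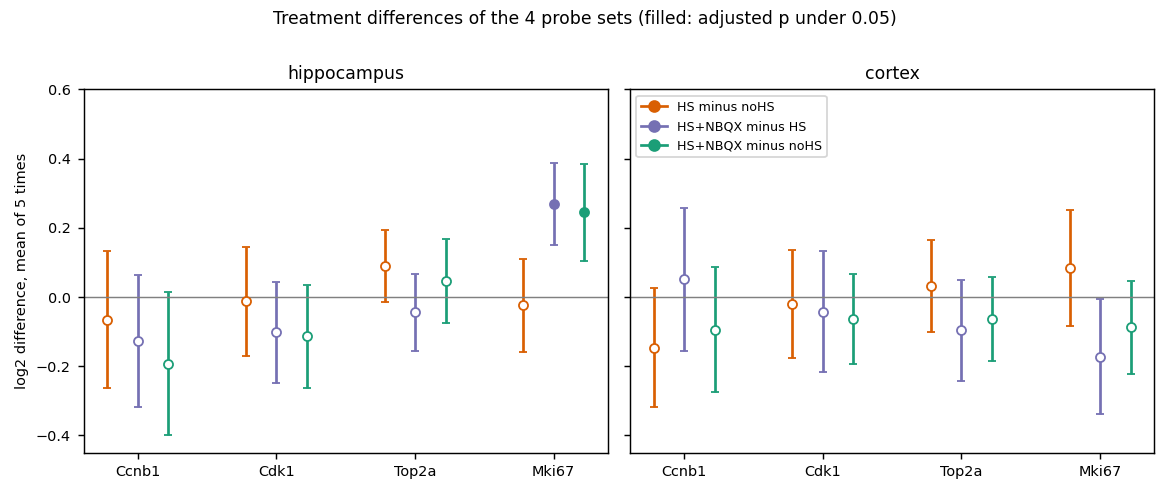
Log2 difference between treatments for each gene, as the mean of the 5 times (vertical axis), in hippocampus (left) and cortex (right), with points at the limma estimate and bars at its 95% confidence interval, filled where the adjusted p was under 0.05. The filled points are those of Mki67 in the hippocampus, 0.27 for HS+NBQX minus HS and 0.25 for HS+NBQX minus noHS.

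The difference between tissues in the NBQX response was tested directly, in a comparison added after the values had been seen. For Mki67 the response in the hippocampus exceeded that in the cortex by 0.44 (SE 0.10, limma adjusted p = 0.0405), and it passed for this gene alone of the 4 and for 0.128% of all probe sets. The call was close to the threshold. It was lost under 6 of 14 alternatives. Among them were the plate column as a block (0.44, adjusted p = 0.99966) and quantile normalization (0.40, adjusted p = 0.088). Another was the fit without the litter on the other plate (0.37, adjusted p = 0.303). The call was also lost in 41 of the 93 fits that each left out 1 library.

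**Figure D4:**
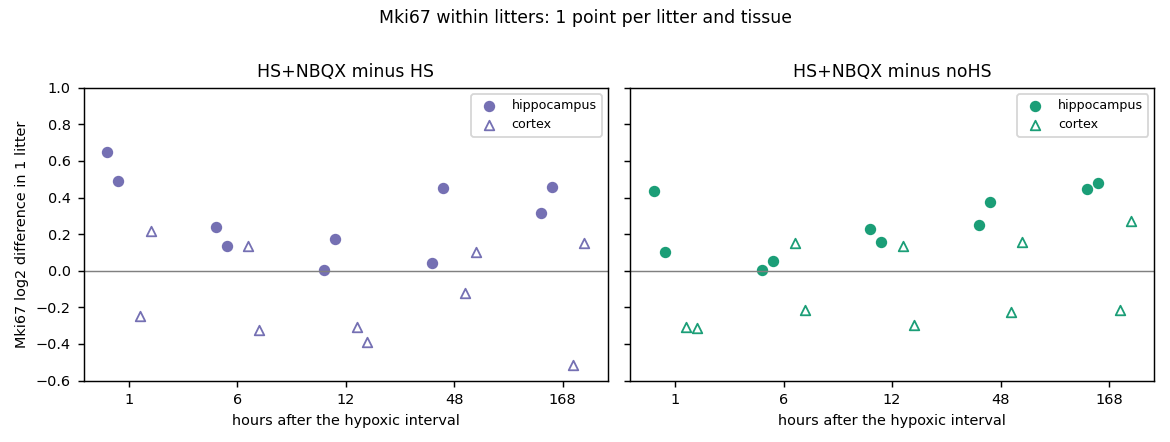
Log2 difference of Mki67 between treatments within each litter (vertical axis) against hours after the hypoxic interval, HS+NBQX minus HS on the left and HS+NBQX minus noHS on the right, with 1 point per litter and filled circles for hippocampus and open triangles for cortex. The hippocampal points lie above 0 in 10 of 10 litters in both panels, whereas the cortical points lie on both sides.

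Between the tissues of sham pups, 3 of the 4 genes differed as the mean over times, in a comparison that 51.8% of all probe sets passed. Each tissue had its own plate, apart from the libraries of 1 litter killed at 168 h. Tissue and plate therefore cannot be told apart in these differences. Top2a was higher in hippocampus than in cortex by 0.27 (SE 0.05, limma adjusted p = 4.71e-05), or 1.21-fold. Mki67 was higher by 0.17 (adjusted p = 0.0431), and Cdk1 was lower at −0.20 (adjusted p = 0.0128), so that the genes of the cycle did not shift together between tissues. Ccnb1 did not pass as a mean over times (0.12, adjusted p = 0.271). The call of Mki67 was lost with the plate column as a block (0.15, adjusted p = 0.161) and in 27 of 49 fits without 1 library, and that of Cdk1 with quantile normalization (−0.15, adjusted p = 0.0558) and with the plate column as a block (−0.18, adjusted p = 0.0709).

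By time, Top2a passed at 6 h, with means of 340 ± 32.7 in hippocampus and 244 ± 29.0 in cortex (SD, n = 5 and 6), a difference of 0.48 (limma adjusted p = 0.00199), as did 19.7% of all probe sets. Ccnb1 passed at 48 h, with 55.9 ± 17.9 in hippocampus and 37.5 ± 5.94 in cortex (SD, n = 5 each), a difference of 0.52 (limma adjusted p = 0.042), as did 28.1% of all probe sets. At 168 h Ccnb1 was at −0.44 and did not pass. Whether the fall over the week differed between tissues was tested too, and 0 of 4 genes passed (0 of 4 with an unadjusted p under 0.05), as did 1.12% of all probe sets. The largest difference was that of Ccnb1, −0.52 (95% interval −1.11 to 0.06, adjusted p = 0.409). The response to hypoxia with seizures differed between tissues for 0 of 4 genes and 0.0907% of all probe sets.

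Of the 48 hypoxic pups, 46 had a number of seizures recorded. The slope of log2 intensity per seizure passed for 0 of 4 genes and for 0% of all probe sets in each tissue, while 934 probe sets in the hippocampus and 1135 in the cortex had an unadjusted p under 0.05. None of the 4 genes was among them. Ccnb1 came nearest, with −0.04 per seizure in the hippocampus (limma unadjusted p = 0.0666) and 0.04 in the cortex (limma unadjusted p = 0.0574), in opposite directions.

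Across the 30 groups of tissue, treatment and time, the mean profiles of the 4 genes ran alike, as a description. Pearson correlations of the group means lay between 0.767 and 0.923 over the 6 pairs of genes. With the groups at 168 h left out, they lay between −0.0464 and 0.762 over the remaining 24 groups, so that most of the likeness came from the last time. Of the 24245 other probe sets, 168 (0.693%) had a correlation of 0.9 or more with the average profile of the 4 genes, 209 (0.862%) had one of −0.9 or less, and the median was 0.0203. The most alike were 1368137_AT (0.979) and 1387141_AT (0.976), whose genes the tables used here do not name.

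Within groups, the genes varied together only loosely. Deviations of libraries from their group means correlated between 0.118 and 0.444 over the pairs in the hippocampus and between −0.0326 and 0.44 in the cortex, and Top2a with Mki67 stood at 0.414 in the hippocampus and 0.44 in the cortex. These libraries share arrays and scaling, and the correlations are given as a description.

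The 68 pups with both tissues show whether a pup high in one was high in the other. Deviations from the group means in the 2 tissues correlated at −0.327 for Ccnb1 (permutation p = 0.0146, adjusted over the 4 genes 0.0585), with a Spearman value of −0.278 (permutation p = 0.0347, adjusted 0.139), and at −0.226 without the 2 pups farthest from the median. For Cdk1 the Pearson correlation was 0.179 (permutation p = 0.144, adjusted 0.288) and Spearman's 0.211 (0.115, adjusted 0.23). For Top2a they were 0.125 (permutation p = 0.235, adjusted 0.313) and 0.148 (0.248, adjusted 0.331), and for Mki67 0.0586 (permutation p = 0.648, adjusted 0.648) and −0.00305 (0.982, adjusted 0.982). None of the 4 genes passed after adjustment, and all tests were two-sided with labels exchanged within groups.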

How the data were processed

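Whole cortex and hippocampus were profiled by the authors on 2 plates of HT Rat Focus arrays. The deposited values are linear MAS5 intensity values, which the authors rescaled array by array to a common 75th percentile of the intensities called present. No MAS5 version is given in the sources used here. The authors left out 2 scans for a possible exchange of tissues. Such scaling fixes the upper part of each array and not its median. Here 97 values at or below 0 were raised to the smallest positive one (0.0526) and log2 was taken.

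Comparisons were fitted in limma 3.58.1 (R 4.3.3) to all 24249 probe sets (66 of them controls), with eBayes trended on mean intensity and 1 mean per group, and p-values were adjusted by Benjamini-Hochberg at 0.05. Each comparison was fitted on its own libraries, and treatment differences are the mean of the 5 times. Each array counts as 1 pup, except where both tissues of a pup enter a comparison of tissues, for which the pup as a block was an alternative. The number of arrays per group limits the precision. For changes with age the number of litters limits it too. Each treatment had 2 litters at each time, except for 3 in HS pups at 1 h. Permutations numbered 100000, and the fit was tested on simulated data.

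The alternatives were other scalings, a pseudocount of 32, omission of the dimmest 40% of probe sets, array weights, 1 fit over the 3 treatments, replicate, pup, litter and plate column as blocks, the methods' own tests, and omission of libraries, times or litters. Litter entered as a block only in the comparisons between treatments. Within a tissue the numbers of replicates do not mark animals shared between treatments or times. Same-numbered libraries of other treatments at the same time deviated together with a median r of only 0.000244 in the hippocampus (66 pairs). In the cortex it was 0.0142 (68 pairs). Of these pairs, 55 in the hippocampus and 60 in the cortex shared a litter. Between the tissues, many same-numbered libraries of a treatment and time carried the same seizure count. Pup and litter come from the labels, and plate positions from the study's design sheet.

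The 4 genes, the lists and the tests were chosen with earlier results of these data known. The rule for named genes was the 4 genes, the leading members of gene lists and the 10 most alike probe sets. No table used here pairs probe sets with genes, so the lists and cell type markers were not run and 2 of the alike probe sets are given by identifier. Promoters are those of RefSeq for GRCr8. Software was Python 3.11.15 with pandas 2.3.3, scipy 1.17.1 and matplotlib 3.10.9.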

Additional observations from a re-analysis of the deposited data

Results flagged for a closer look

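Within groups of 4 to 6 libraries, 7 of 120 combinations of gene, tissue, treatment and time had 1 library standing apart from the others by Dixon's criterion, where chance gives about 1 in 20 (6 of 120). For Ccnb1 it was replicate 3 of the HS+NBQX cortex at 168 h, at 36.1 against 15.8 to 18.2 in the others. For Cdk1 it was replicate 2 of the HS+NBQX hippocampus at 12 h (75.7 against 56.2 to 59.1), replicate 1 of the noHS hippocampus at 48 h (101 against 55.1 to 64.6), replicate 1 of the HS+NBQX cortex at 1 h (87.6 against 103 to 105) and replicate 2 of the HS cortex at 6 h (52.5 against 98.5 to 101). The last of these libraries was apart for Top2a as well, but on the high side (295 against 224 to 228). For Mki67 it was replicate 5 of the noHS cortex at 6 h, at 134 against 96.3 to 109.

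The response of Mki67 to NBQX differed between the tissues by 0.44 on the log2 scale, hippocampus minus cortex, by the interaction contrast in limma (adjusted p = 0.0405). The comparison was added after the values had been seen, and the call was lost under 6 of 14 alternatives.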

How the results depend on the processing

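Over the alternatives run, the 24 falls between 168 h and 1 h kept their direction. The 1 call lost was Mki67 in the HS cortex with the methods' t-test (−0.79, adjusted p = 0.111). The calls on Mki67 under NBQX and between tissues were less stable, as were estimates near 0, and the cause was not tested. Values are log2 differences with limma adjusted p-values. Signal limits Ccnb1 the most, and it has no value without the dimmest 40% of probe sets. The replicate block changed 0 of 138 calls, and in that fit HS+NBQX minus HS for Mki67 in the hippocampus was 0.27 (0.00298). The 3′ to 5′ and upper quartile covariates, the lenient ANOVA threshold, the fits without 2 HS pups that have no seizure count, and the tissue difference under NBQX were chosen after seeing the data. Gene lists and 1 probe set per gene were not run.

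For Mki67 in the hippocampus, HS+NBQX minus HS was 0.26 (0.0903) with the plate column as a block and 0.23 (0.0676) without the 1 h libraries. HS+NBQX minus noHS was 0.19 (0.0548) without the 168 h libraries and 0.12 (0.344) with the 3′ to 5′ covariate. Its tissue difference was 0.40 (0.088) with quantile normalization, 0.39 (0.0903) at a common median, 0.44 (1.0) with the plate column, 0.37 (0.303) without the litter on the other plate, 0.45 (0.0647) without those pups and 0.42 (0.149) with the upper quartile, and 0.41 to 0.47 without 1 library. Between tissues of noHS pups, Cdk1 was −0.15 (0.0558) with quantile normalization and −0.18 (0.0709) with the plate column, and Mki67 was 0.15 (0.161) with the plate column and 0.14 to 0.19 without 1 library. Calls gained were Mki67 in HS minus noHS cortex with the upper quartile (0.28, 0.0292) and, in HS+NBQX minus noHS hippocampus, Ccnb1 with quantile normalization (−0.25, 0.0378) and Mki67 at 168 h under 3 alternatives (0.49 to 0.54). Ccnb1 in noHS cortex, 168 h minus 48 h, was lost under 6 alternatives (−0.25 to −0.56).

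Some uncalled estimates changed sign. HS minus noHS in the hippocampus was 0.013 for Cdk1 with array weights and 0.0028 without those pups, 0.019 and 0.013 for Mki67 without the 1 h or the 6 h libraries, and 0.0042 for Ccnb1 without the 48 h libraries. Without 1 library Cdk1 ran between −0.040 and 0.022 and Mki67 between −0.048 and 0.0015. In the cortex Cdk1 was 0.00070 without the 12 h libraries, 0.038 without the litter on the other plate and 0.0053 without those pups, and without 1 library it ran between −0.044 and 0.025 and Top2a between −0.0081 and 0.058. The change over the week, HS minus noHS, was in the hippocampus −0.018, −0.038 and −0.016 for Top2a (common median, array weights, without those pups) and 0.0024, 0.059, 0.024 and 0.045 for Cdk1 (pseudocount, array weights, 3′ to 5′ and upper quartile covariates). In the cortex it was −0.027 and −0.0061 for Cdk1 (quantile normalization, without those pups) and 0.0042 and 0.070 for Ccnb1 (pseudocount, without those pups). HS+NBQX minus HS was −0.019 for Mki67 at 12 h in the hippocampus with the plate column and −0.0019 for Ccnb1 in the cortex without the 12 h libraries. HS+NBQX minus noHS was −0.0026 and −0.0062 for Top2a in the hippocampus (common median, 3′ to 5′ covariate), 0.0069 for Top2a in the cortex (quantile normalization), and for Mki67 in the hippocampus −0.0077 at 6 h (common median) and −0.016 at 1 h and −0.099 at 6 h (3′ to 5′ covariate). The slope per seizure was −0.00076 for Top2a (common median) and 0.0011 for Cdk1 (3′ to 5′ covariate) in the hippocampus and −0.0096 for Mki67 in the cortex (without the litter on the other plate), and without 1 library it ran between −0.0087 and 0.0040 for Cdk1, −0.0052 and 0.0051 for Top2a, and −0.00062 and 0.016 for Mki67. Tissue differences were 0.011 for the fall of Top2a and 0.020 for the NBQX response of Cdk1 (both without the litter on the other plate), −0.0027 for the NBQX response of Top2a (common median), −0.022 for the HS response of Ccnb1 (upper quartile), and for that of Cdk1 −0.022, −0.0043, −0.077, −0.0025 and −0.0012 (quantile normalization, common median, without the litter on the other plate, without those pups, 3′ to 5′ covariate) and between −0.037 and 0.043 without 1 library.

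With the plate column as a block, counts over all probe sets were 215 against 1023 (HS+NBQX minus HS, hippocampus), 3 against 649 (the same, cortex), 2781 against 5220 and 3497 against 7062 (HS minus noHS, hippocampus and cortex) and 5910 against 9467 (HS+NBQX minus noHS, cortex). Over all settings HS+NBQX minus HS in the cortex gave 3 to 1810 calls, the tissue difference of the HS response 0 to 410 (22 as reported) and that of the NBQX response 0 to 575 (31). HS+NBQX minus HS in the hippocampus gave 484, 541 and 602 without the 1, 6 or 12 h libraries, and HS+NBQX minus noHS in the cortex 4778 with the upper quartile covariate. The 168 h minus 1 h comparison gave 2575 against 4196 (noHS hippocampus) and 3500 against 6031 (HS hippocampus) without the litter on the other plate, 3374 and 3769 with the methods' t-test against 5420 (HS+NBQX hippocampus) and 6252 (noHS cortex), and 2418 against 5420 (HS+NBQX hippocampus) and 4346 against 7125 (HS cortex) with the 3′ to 5′ covariate. Its tissue difference gave 79 to 533 against 272.

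At a common median, higher and lower calls numbered 2377 and 3549 (2818 and 2402 as reported) for HS minus noHS, 467 and 604 (643 and 380) for HS+NBQX minus HS and 3075 and 5279 (3836 and 3553) for HS+NBQX minus noHS in the hippocampus, 3614 and 2413 (2655 and 3597) for 168 h minus 1 h in noHS cortex, and 204 and 137 (113 and 536) for HS+NBQX minus HS in the cortex, where quantile normalization gave 255 and 252. With the upper quartile covariate the cortex gave 3706 and 2103 (3169 and 3893) for HS minus noHS, 2576 and 2202 (3470 and 5997) for HS+NBQX minus noHS and 115 and 146 for HS+NBQX minus HS. The tissue difference under NBQX gave 9 and 17 (24 and 7) with quantile normalization and 2 and 13 at a common median, and that of the fall 147 and 204, and 78 and 238 (167 and 105).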
